A study of Mus musculus with 242 samples.

Results

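Kupffer cells are the macrophages that live in the liver sinusoids, where they take up particles, dying cells and bacterial products from portal blood. CLEC4F is a lectin that in the mouse is largely restricted to them, and CSF1R is the receptor for the growth factors that keep macrophages alive. Monocytes, neutrophils and lymphocytes enter the liver from blood, and neutrophils and lymphocytes are scarce among the cells of a healthy liver.

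Here 37 genes of these cells were followed in mouse liver. They were chosen by symbol, and each was read from its brightest probe set (by the mean of all arrays), out of 18193 genes measured. All 37 were on the array, and 11 had more than 1 probe set. They comprise 10 surface genes of Kupffer cells and macrophages (Cd68, Adgre1, Clec4f, Csf1r, Cd5l, Marco, Vsig4, Cd14, Cd163 and Msr1), the 3 chains of complement C1q (C1qa, C1qb, C1qc), and 2 lysosomal enzyme genes (Lyz2, Ctss). A further 4 belong to monocyte and dendritic cell adhesion and recruitment (Itgam, Itgax, Ccr2, Ccl2), 4 to MHC class II antigen presentation (Cd74, H2-Aa, H2-Ab1, H2-Eb1), and Ptprc encodes CD45, carried by all leukocytes. The lymphocyte genes are 4 of T cells (Cd3e, Cd3g, Cd4, Cd8a), 3 of B cells (Cd79a, Cd79b, Ms4a1) and 3 of cytotoxic cells (Nkg7, Gzma, Gzmb). S100a8 and S100a9 encode the 2 subunits of calprotectin, the main cytosolic protein of neutrophils, and Ly6d encodes a small membrane-anchored Ly6 protein found on early B lineage cells and on some epithelia.

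The livers came from 242 female B6C3F1 mice, 1 Affymetrix Mouse430_2 array per mouse, exposed from 5 weeks of age for 13 weeks and killed at 18 weeks. There were 46 treated groups of 26 chemicals (183 mice) and 14 vehicle control sets (59 mice), with 3 to 5 mice each, and RNA came from the minced right, caudate and median lobes. Gavage was given 5 days a week in corn oil or distilled water, feed 7 days a week as rodent chow, and inhalation 6 hours a day for 5 days a week in air. Codes in the labels, taken with the sample titles, divide the arrays among 4 runs, here lettered A (with 54 arrays), B (with 36), C (with 18) and D (with 134). Run A holds arrays of more than 1 code, and 1 of its codes is also that of run D. The codes alone therefore do not part A from D, and only the form of the titles does. The controls for a treated group were mice given its vehicle in its run, and several chemicals share a control set. The groups that carry the results below were 1,2-dibromoethane (62 mg/kg, gavage in corn oil, run A), benzene (100 mg/kg, gavage in corn oil, run A), malathion (14800 ppm in feed by 1 label, while the sample titles carry 16000, run A), 4-nitroanthranilic acid (10000 ppm in feed, run A) and iodoform (93 mg/kg, gavage in corn oil, run B). In run C they were 2,3-benzofuran (240 mg/kg, gavage in corn oil), 1,5-naphthalenediamine and N-(1-naphthyl)ethylenediamine dihydrochloride (each 2000 ppm in feed). In run D they were naphthalene (0.5, 3, 10, 20 and 30 ppm, inhaled), methylene chloride (100, 500, 2000, 3000 and 4000 ppm, inhaled) and 1,4-dichlorobenzene (100, 300, 400, 500 and 600 mg/kg, gavage in corn oil). The other dose series of run D were 1,2,3-trichloropropane (2, 6, 20, 40 and 60 mg/kg, gavage in corn oil) and propylene glycol mono-t-butyl ether (25, 75, 300, 800 and 1200 ppm, inhaled). Figures also show coumarin (200 mg/kg, gavage in corn oil, run A) and pentachloronitrobenzene (8187 ppm in feed, run C). The RNA integrity number ranged from 4.7 to 7.8 in run A and lay at 7.1 or above in the other runs.

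Levels are on a log2 scale, with 17.3 added to each signal first, so a step of 1 is a doubling and folds of dim genes are understated. A gene was called changed when limma, fitted to all arrays of a run, gave a p under 0.05 after Benjamini-Hochberg adjustment across the 18193 genes and a fold of at least 1.5. Genes with an unadjusted p under 0.05 are called nominally higher or lower, and the share of all genes that did the same is given beside each count. Errors written with ± after a change are the SE of the limma coefficient, and in run A the fit also has a term for its run codes, so that a change there can differ slightly from the difference of the means. RNA was taken from whole tissue, so fewer cells of a type and less RNA per cell cannot be told apart. Levels of different genes come from different probes and are not compared with each other.

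Before any group is compared, 2 mice of run A stand apart from the rest. They were replicate 3 of the 1,2-dibromoethane group and replicate 2 of the control set called CCO3, whose vehicle is distilled water in the labels. Of the 37 genes, 28 (75.7%) in the first mouse and 29 (78.4%) in the second lay above all the other 52 mice of the run, against 11% and 8.06% of all genes. The median difference of the 37 genes to the run's median was 2.00 and 2.17, and that of all genes 0.018 and 0.030.

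Marco, a scavenger receptor of macrophages, lay between 4.59 and 10.1 in the other 52 mice (median 6.65) and at 13.3 and 13.7 in these 2. Ptprc lay between 7.35 and 10.1 (median 8.84) and at 12.2 and 12.4. C1qa, the A chain of C1q, lay between 9.38 and 13.0 (median 11.0) and at 13.8 and 13.9. Each of these genes was clear of the other mice in both animals. Lyz2, the lysozyme gene of myeloid cells, lay between 8.83 and 12.1 (median 10.2) and at 13.6 and 14.0. Clec4f differed from these genes: its 12.7 and 12.4 fell within the other mice, which ran from 9.76 to 12.8 (median 11.4).

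By role, all 3 C1q chains, 9 of 10 macrophage surface genes and both lysosomal genes lay above the other mice in both animals, while of the 4 T cell genes none did in the 1,2-dibromoethane mouse and 1 did in the control. Other neutrophil genes, 9 in all and outside the 37, were higher by a median of 5.81 and 4.45. In each animal 7 of them lay above all the other mice. Among them Mpo, the myeloperoxidase gene, stood at 12.3 and 10.9, and Elane, the neutrophil elastase gene, at 11.6 and 10.4. Of 5 hepatocyte markers none lay above the other mice, and their median difference was −0.12 and −0.19. Markers of pancreas, bile duct and adipose tissue were above the other mice in none of the genes tested. Of 6 endothelial markers 2 lay above and 1 below all the other mice in the 1,2-dibromoethane mouse (median difference 0.38), and 4 above and 2 below in the control mouse (0.76). Of 6 stellate cell and fibroblast markers 4 lay above them in the first mouse (median difference 1.10) and 2 in the second (0.52). The part of these cells in the leukocyte values of the 2 mice was not tested.

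S100a8 showed the largest range of the 37 genes, from 4.51 to 14.96 over the 242 mice with a median of 6.74, and only 8 mice lay above 9. In the 1,2-dibromoethane group it stood at 8.02, 7.38, 14.96 and 7.17, and in its corn oil controls at 8.999, 7.09, 7.97 and 6.65. In the CCO3 controls it stood at 7.04, 14.24, 9.76 and 6.51, and in the benzene group, which shares the corn oil set, at 11.39, 12.76, 6.42 and 6.03. Some mice but never a whole group lay above 9 in the 1,2-dibromoethane, CCO3 and benzene groups, and none of the corn oil controls did. S100a9 followed, at 7.31, 6.98, 14.69 and 7.48 with 1,2-dibromoethane and at 10.26, 11.45, 6.22 and 6.81 with benzene. Ngp, a neutrophil granule protein gene, stood at 8.66 and 10.2 in the 2 high benzene mice and at 13.7 in the high 1,2-dibromoethane mouse. Not every neutrophil gene was high in these benzene mice. Cxcr2 stood at 5.42 and 4.63 (median of all mice 5.28) and Mmp8 at 4.83 and 5.63 (median 5.47). Csf3r, Mpo, Elane, Camp, Ltf and Lcn2 were above their medians in both.

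**Figure D1:**
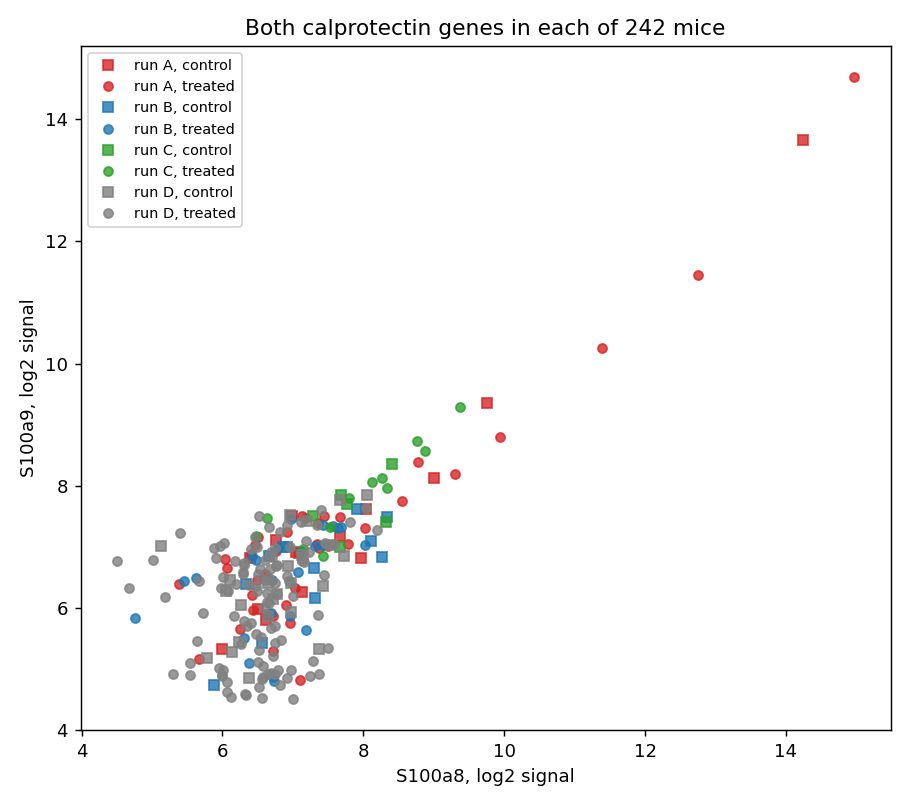
S100a9 against S100a8 (log2 signal) in each of the 242 mice, with squares for controls, circles for treated mice and a colour for each run. The 2 mice that stand apart lie at the upper right, 1 of them a control, and most mice lie near the medians of 6.74 and 6.62.

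With limma the 1,2-dibromoethane comparison called none of the 37 genes (0.0385% of all genes called), and 2 were nominally higher and 0 lower (3.13% and 2.8% of all genes). Its S100a8 change was 1.88 with all mice and 0.02 without replicate 3, and the median change of the 37 genes was 0.60 with it and 0.14 without it. The difference between the distilled water sets, WCO1 minus CCO3, had a median over the 37 genes of −0.62, and −0.083 without the high control mouse. Both mice also enter the shared estimate of spread in run A.

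Pairs of genes moved together from mouse to mouse within groups to very different degrees. Over the 242 deviations from group means, Pearson's r and Spearman's rho were 0.95 and 0.93 for C1qa with C1qb (permutation test of r, 100000 resamples, adjusted p = 2.00e-05 over 12 pairs, built on the smallest p they can give), and r was 0.94 without the 2 arrays farthest from the median and lay between 0.84 and 0.98 in the 4 runs. For S100a8 with S100a9 they were 0.71 and 0.48, with r of 0.60 without the 2 arrays farthest from the median, and r ran from 0.20 in run D to 0.93 in run A. C1qa with S100a8, genes of different roles, gave 0.63 and 0.40 (permutation adjusted p = 2.00e-05), with r of 0.54 without the 2 farthest arrays, 0.84 in run A and between 0.12 and 0.25 in the other runs. H2-Aa with H2-Ab1 gave 0.68 and 0.60, with r of 0.63 without the 2 farthest arrays and from 0.36 in run C to 0.84 in run A. Clec4f with Vsig4, both Kupffer cell receptors, gave 0.40 and 0.27, with r of 0.35 without the 2 farthest arrays, −0.05 in run B and 0.69 in run C. The T cell receptor chains Cd3e and Cd3g gave an r of −0.03 (permutation adjusted p = 0.672). The B cell receptor chains Cd79a and Cd79b gave 0.14 (permutation adjusted p = 0.0859), with 0.48 in run A and 0.07 in run D.

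Over the 46 treated groups the 37 genes changed rarely. limma called 4 of 1702 gene and group combinations (0.235%), against 0.751% of all combinations. Nominally, 107 combinations were lower (6.29%, against 5.51% of all) and 39 higher (2.29%, against 4.9%). The median SD within groups was 0.49 for the 37 genes and 0.45 for all genes. The called combinations were Ptprc and Csf1r lower and Ly6d higher with 2,3-benzofuran, and Ptprc lower with 1,5-naphthalenediamine. All 4 were in run C, which has 3 mice per group. By role, the 10 macrophage surface genes were nominally lower in 42 of 460 combinations and higher in 6, the lysosomal genes lower in 12 of 92 and higher in 0, and the calprotectin genes lower in 8 of 92 and higher in 0. The C1q chains were lower in 8 of 138 and higher in 2. The monocyte and dendritic cell genes were lower in 10 of 184 and higher in 5, and the MHC class II genes lower in 8 of 184 and higher in 2. For these last roles the share lower was near the 5.51% of all combinations.

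**Figure D2:**
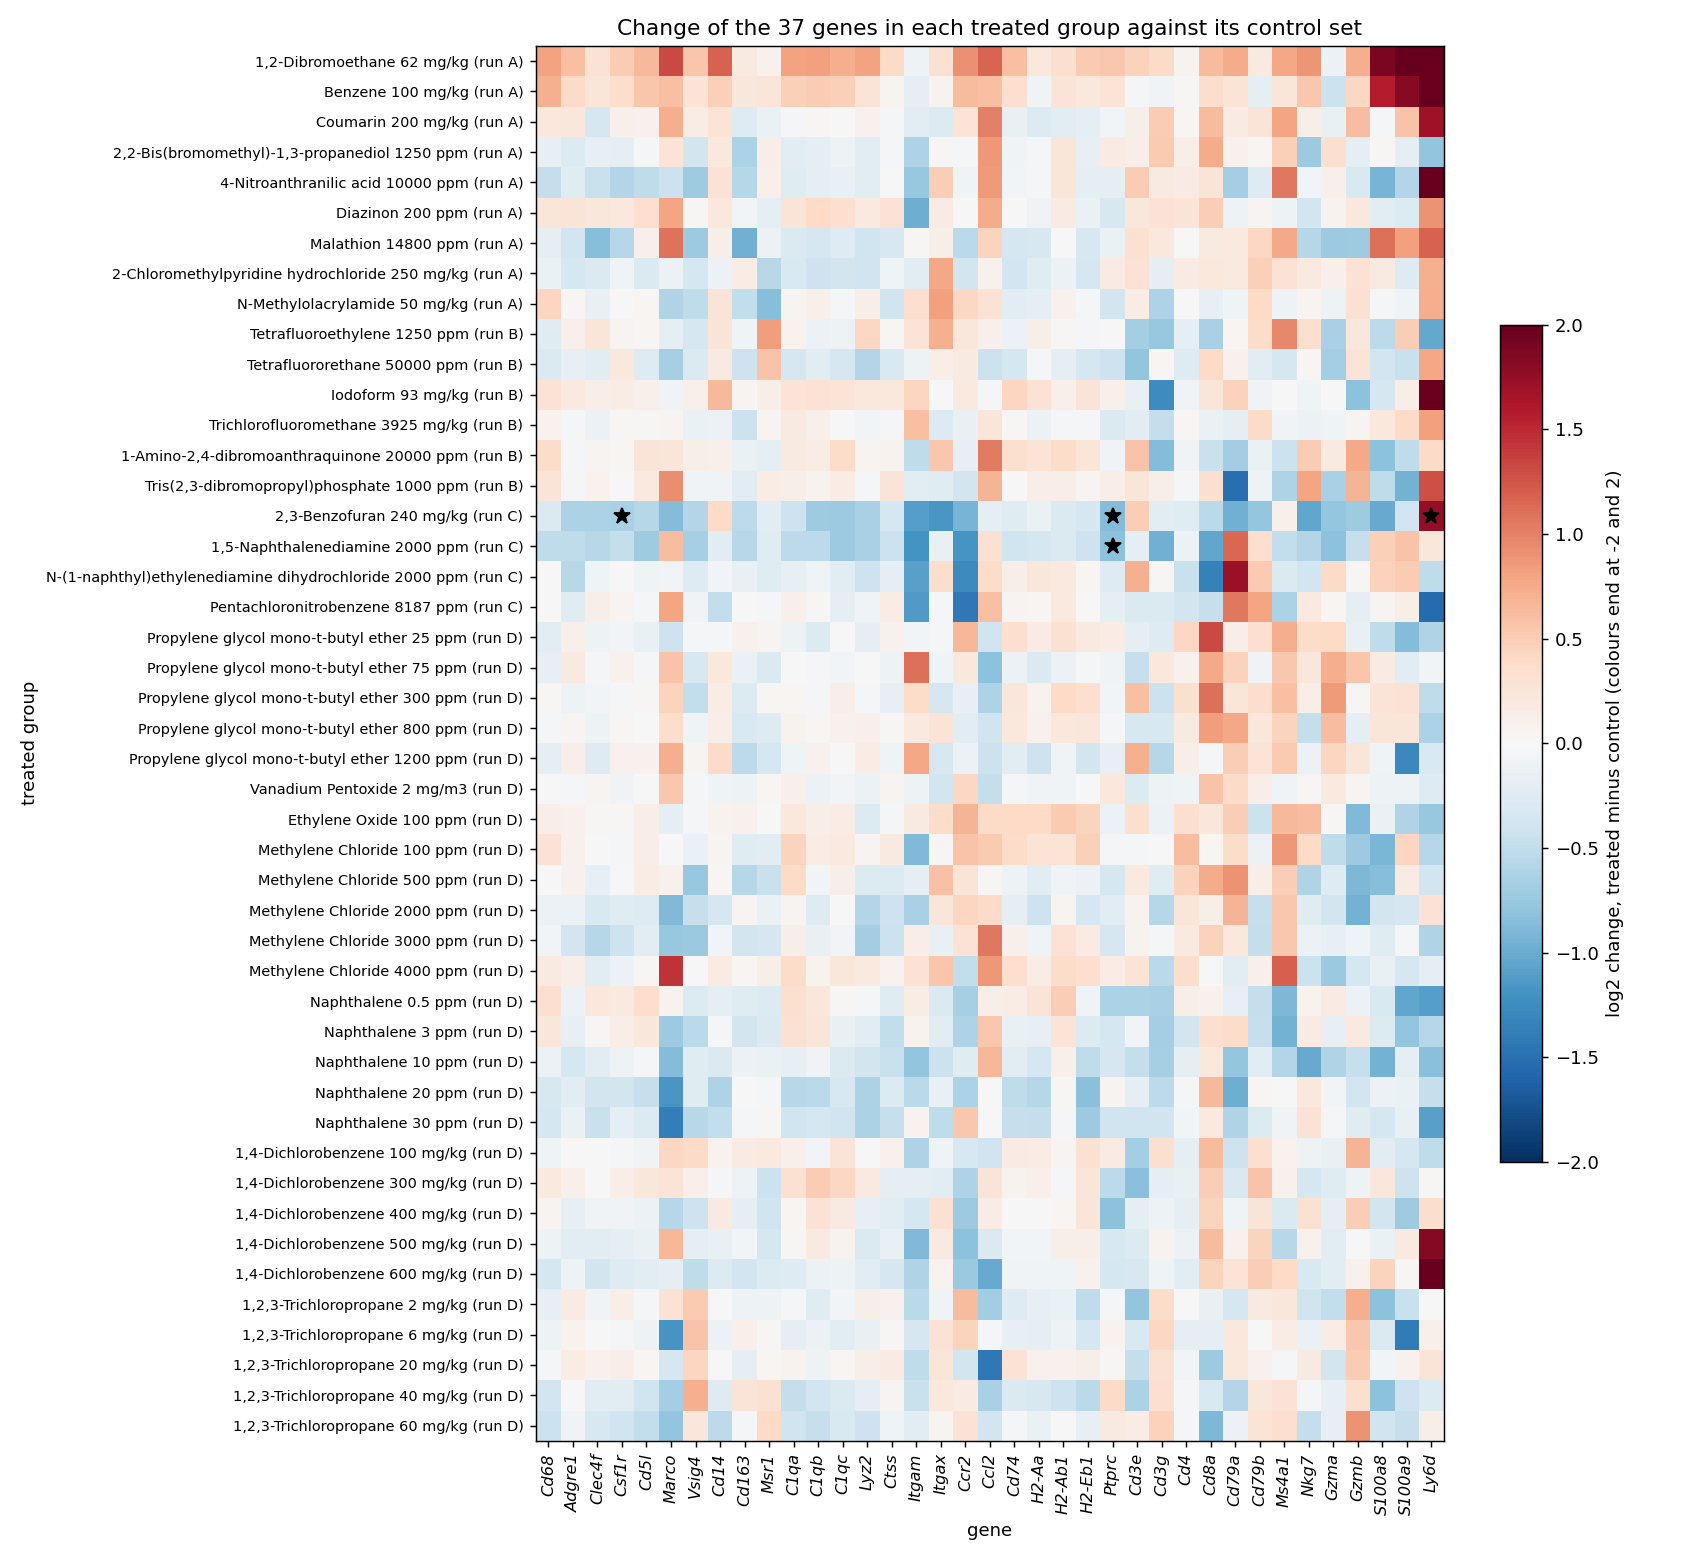
Log2 change (colour, treated minus control, ending at −2 and 2) of each of the 37 genes (horizontal axis, by role) in each of the 46 treated groups (vertical axis, with dose and run). Stars mark the 4 calls, and the deepest red lies with Ly6d and with the calprotectin genes in the 1,2-dibromoethane and benzene groups.

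The change of Clec4f was below 0 in 32 of the 46 groups, as were those of Vsig4 and S100a8, and that of Cd163 was in 35. Clec4f was nominally lower in 10 groups and nominally higher in none. Of all combinations of genes and groups 5.51% were nominally lower and 4.9% higher. Several groups share a control set, so such counts are not of independent groups. The clearest relation of Clec4f to dose was with inhaled naphthalene, a bicyclic aromatic hydrocarbon. In the 5 air controls Clec4f stood at 11.37, 11.47, 11.29, 11.66 and 11.32. At 0.5 ppm it stood at 11.68, 11.67, 11.52 and 11.67, at 3 ppm at 11.18, 11.51, 11.54 and 11.56, and at 10 ppm at 11.15, 11.32, 11.20 and 11.09. At 20 ppm it stood at 11.14, 11.13, 11.05 and 10.88, and at 30 ppm at 11.08, 11.03, 11.03 and 10.78. The 0.5 ppm mice thus lay among or above the controls, and all mice at 20 and 30 ppm lay below every one of their controls, as was the case for 1.45% and 1.19% of all genes. The means were 11.42 in controls, 11.05 at 20 ppm and 10.98 at 30 ppm, and the direct change at 30 ppm was −0.44 (± 0.12, 1.36-fold lower, limma adjusted p = 0.42), which was not called.

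With control and doses taken as evenly spaced steps, Clec4f fell by 0.61 from control to 30 ppm on the line fitted over the ranks, which is steeper than the direct change (± 0.10, 1.52-fold lower, limma adjusted p = 5.0e-04). It was the only one of the 37 genes called for this trend, which was called for 0.0934% of all genes. The fitted fold lies close to the minimum of 1.5. It dropped under that minimum, with adjusted p between 0.0025 and 0.0072 in limma, without control replicate 4 (−0.56), 20 ppm replicate 4 (−0.58) or 30 ppm replicate 4 (−0.56). The mice at 30 ppm, between 10.78 and 11.08, also lay below all 15 air control mice of run D, the lowest of which stood at 11.16, and the same held for Lyz2 but for none of the other 35 genes (0.154% of all genes).

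Further macrophage genes were low at the upper naphthalene doses, though none besides Clec4f was called. Nominally, the trend was downward for 15 of the 37 genes and upward for 0, against 5.18% and 3.92% of all genes. The 15 were 6 of 10 surface genes (Cd68, Clec4f, Csf1r, Cd5l, Marco, Cd14), all 3 C1q chains, both lysosomal genes, 3 of 4 MHC class II genes (Cd74, H2-Aa, H2-Eb1) and Cd79a. None of the T cell, cytotoxic or calprotectin genes was among them, and the fitted change of Ptprc was 0.01. Apart from Cd8a and Ptprc, these genes were dim in run D, with no group mean above the median of all genes. A fall in them is therefore less well measured. The median over the 37 genes was −0.34, against −0.014 over all genes.

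Cd68, a lysosomal membrane protein of macrophages, had a fitted change of −0.58 (± 0.14, limma adjusted p = 0.068). It stood at 8.60, 8.76, 8.76, 8.95 and 8.74 in controls, 9.24, 9.18, 9.05 and 8.92 at 0.5 ppm, 8.70, 8.68, 8.26 and 8.11 at 20 ppm, and 8.30, 8.32, 8.40 and 8.65 at 30 ppm. C1qa had a fitted change of −0.73 (± 0.19, limma adjusted p = 0.091). It stood at 10.96, 11.21, 11.37, 11.87 and 11.87 in controls, 11.85, 11.89, 11.68 and 11.68 at 0.5 ppm, and 11.23, 11.02, 11.18 and 10.78 at 30 ppm. The controls and the 30 ppm mice overlapped for both genes, whereas the 0.5 ppm and 30 ppm mice did not. Cd5l, a secreted survival protein of tissue macrophages, stood at 11.90, 11.85, 11.82, 12.26 and 12.31 in controls, at 12.38, 12.54, 12.25 and 12.33 at 0.5 ppm and at 11.78, 11.71, 11.85 and 11.66 at 30 ppm.

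**Figure D3:**
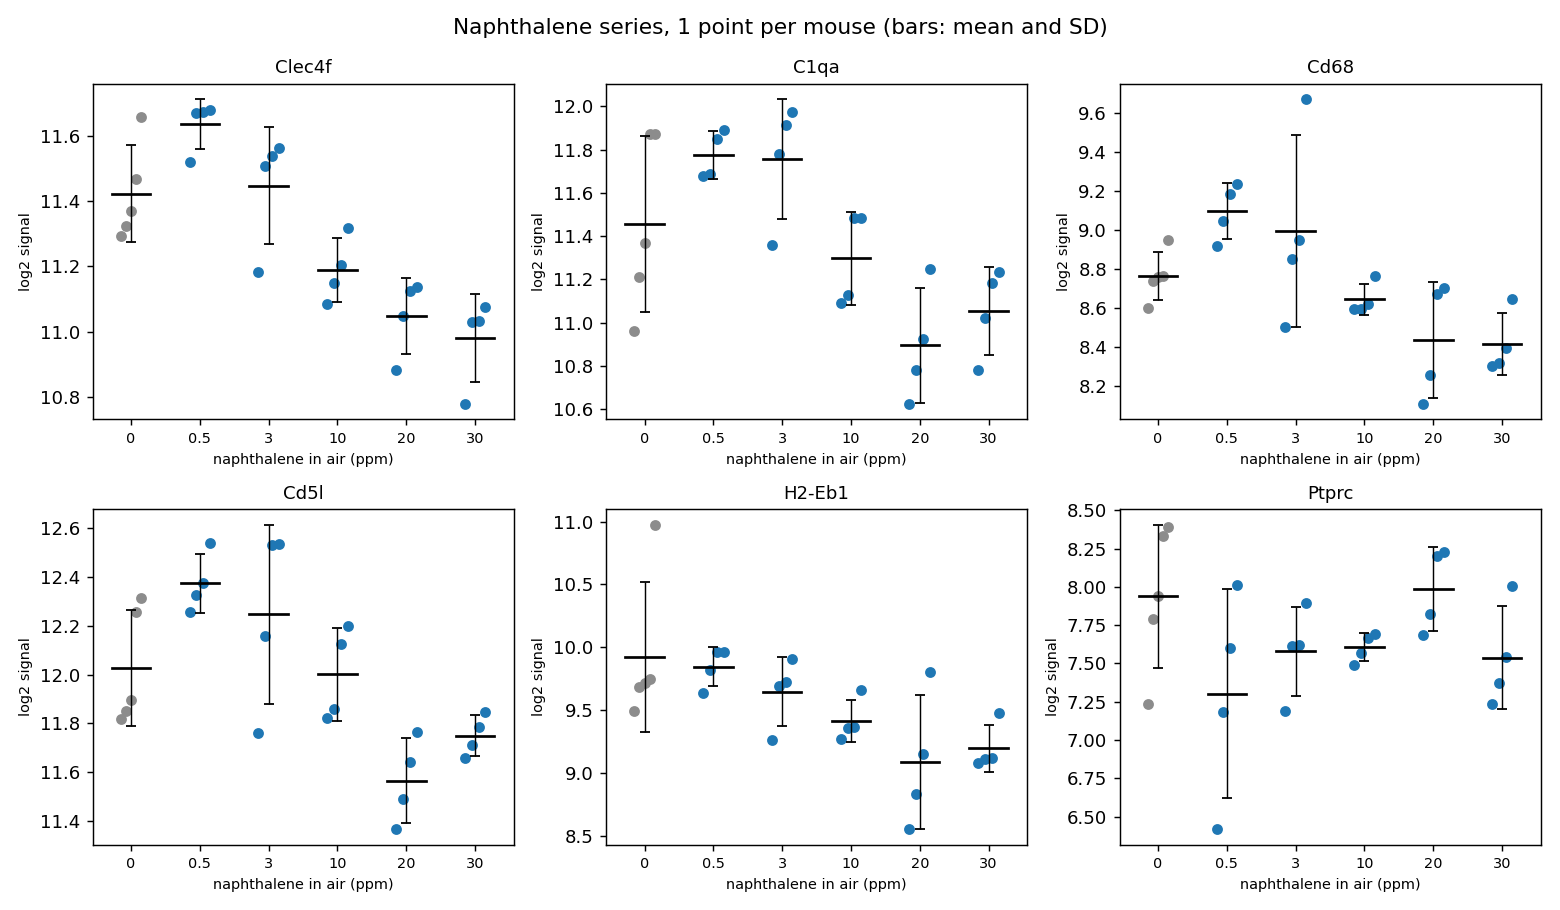
Log2 signal of Clec4f, C1qa, Cd68, Cd5l, H2-Eb1 and Ptprc in each mouse (points, grey for controls; bars give the mean and SD) at 0, 0.5, 3, 10, 20 and 30 ppm naphthalene, placed by rank of dose. Clec4f runs from 11.29 to 11.66 in controls and from 10.78 to 11.08 at 30 ppm, and Ptprc shows no such course.

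How many genes passed depended on how the dose series was read. When the 5 dosed groups were fitted without the controls, 8 of the 37 genes were called, all lower (5.84% of all genes called): Cd68 (−0.77), C1qa (−0.92), C1qb (−0.77), Cd5l (−0.77), Clec4f (−0.68), H2-Aa (−0.75), H2-Eb1 (−0.74) and Cd74 (−0.63). On a linear dose scale 5 were called (0.737% of all genes), namely Cd68, C1qa, C1qb, Cd5l and H2-Eb1. After quantile normalisation none was, Clec4f being at −0.58 (limma adjusted p = 5.5e-04) and under the fold minimum. Without control replicate 1 the trend called 5 of the 37 genes, without 20 ppm replicate 1 it called 4 and without 3 ppm replicate 1 it called 2. Against the controls, limma called none of the 37 genes at any single dose, with 2.49%, 4.14%, 0.687%, 0.132% and 0% of all genes called from 0.5 to 30 ppm. Nominally, 1, 2, 6, 11 and 10 of the 37 were lower in the same order, against 10.3%, 12.7%, 8.13%, 4.85% and 3.13% of all genes. Those nominally higher were 2, 0, 0, 0 and 0, against 8.95%, 10.5%, 5.58%, 3.71% and 1.41%. Of 5 hepatocyte markers none had a nominal trend, but at 0.5 ppm Alb (0.67, limma adjusted p = 0.0091) and Ttr (0.61, limma adjusted p = 0.011) were called higher. The endothelial markers Cdh5 at 0.5 ppm (−0.65, limma adjusted p = 0.027) and Lyve1 at 3 ppm (−0.97, limma adjusted p = 0.012) were called lower. So was the bile duct marker Epcam at 3 ppm (−1.50, limma adjusted p = 0.0042). No other marker of these cells was called at any naphthalene dose, and the part of these cells was not tested. RNA integrity numbers were 8.5 to 8.9 in the controls, 9.1 to 9.3 from 0.5 to 10 ppm and 8.4 to 8.7 at 20 and 30 ppm, and their part in the result was not tested.

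The MHC class II genes H2-Aa and H2-Eb1 encode an alpha and a beta chain that present peptides to T helper cells, and their promoters share an element called the Y box, bound by the factor NF-Y. The 100 bases before each gene's start are shown because both genes were among those low at the upper naphthalene doses, and the capitals mark the letters CTGATTGG. Both come from RefSeq on build GRCm38.p6: H2-Aa at chr17:34287824-34287923 on the minus strand, with the letters starting 51 bases before the start, and H2-Eb1 at chr17:34305767-34305866 on the plus strand, with the letters starting 62 bases before it.
H2-Aa: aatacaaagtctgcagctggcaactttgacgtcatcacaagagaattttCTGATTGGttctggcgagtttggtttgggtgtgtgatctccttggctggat
H2-Eb1: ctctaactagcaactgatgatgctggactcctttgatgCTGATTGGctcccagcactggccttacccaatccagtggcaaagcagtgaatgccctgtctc
On either strand these letters were in 1346 of 32851 promoters of 300 bases (4.097%), and in 3 of the 25 among the 37 genes that have an entry (Gzma, H2-Aa, H2-Eb1). A match is a description of the letters and not a sign of binding.

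H2-Eb1 stood at 9.49, 9.72, 9.74, 10.98 and 9.68 in air controls, 9.80, 9.15, 8.56 and 8.83 at 20 ppm and 9.11, 9.08, 9.48 and 9.12 at 30 ppm, where all mice lay below every control (again 1.19% of all genes). Its fitted trend was −0.88 (± 0.22, limma adjusted p = 0.079). H2-Aa stood at 10.53, 10.38, 10.54, 11.51 and 10.23 in controls and at 10.26, 10.08, 10.20 and 10.10 at 30 ppm, with a fitted trend of −0.72 (± 0.20, limma adjusted p = 0.13). Control replicate 4 was high for both genes. The 30 ppm mice overlapped the controls for H2-Aa.

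Clec4f was also low with inhaled methylene chloride, a chlorinated solvent. It stood at 11.60, 11.52, 11.45, 11.46 and 11.48 in air controls and at 11.02, 10.89, 10.97 and 10.84 at 3000 ppm. All 4 treated mice lay below every control (2.74% of all genes did the same). The change was −0.57 (± 0.12, 1.49-fold lower, limma adjusted p = 9.6e-04), just under the fold minimum, so that limma called 0 of the 37 genes at this dose (3.05% of all genes called), with 6 nominally lower and 1 higher (9.15% and 10.4% of all genes). Without 3000 ppm replicate 1 it was −0.60 (limma adjusted p = 0.0024) and passed. By adjusted p alone 1 was, against 5.35% of all genes. At 4000 ppm Clec4f stood at 11.40, 11.52, 11.03 and 11.18, a change of −0.22, so the highest dose did not give the lowest level. The trend over the doses was −0.41 (limma adjusted p = 0.0039), and limma called 0 of the 37 genes for it under both criteria (3.5% of all genes), with 2 nominally lower and 1 higher (10.9% and 9.55%). Markers of other cells were also lower at 3000 ppm, namely Stab2 of the sinusoidal endothelium (−0.62, limma adjusted p = 2.6e-06) and Reln of stellate cells (−0.90, limma adjusted p = 7.8e-06), the only ones called of 6 endothelial and 6 stellate cell and fibroblast markers, and their part in the result was not tested.

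With malathion, an organophosphate insecticide, the 2 genes nearest the threshold were Cd163, the haemoglobin scavenger receptor of macrophages, and Clec4f. Cd163 stood at 9.56, 9.84, 9.52 and 9.69 in chow controls and at 8.35, 8.15, 9.13, 9.60 and 8.88 with malathion. Clec4f stood at 11.69, 11.00, 11.33 and 11.17 against 10.41, 10.04, 10.98, 11.01 and 9.76. For each gene 1 treated mouse lay inside the control range and the other 4 below every control. Cd163 had a change of −0.96 (limma adjusted p = 0.074) and Clec4f one of −0.85 (limma adjusted p = 0.088), and 0 of the 37 genes were called against 4.37% of all genes, with 3 nominally lower and 0 higher (8.26% and 8.11%). Fitted without the 2 mice that stand apart, neither of which is in these groups, both were called with the same changes (limma adjusted p = 0.020 and 0.048), and 4.97% of all genes were. The 2 mice were picked by the values of the 37 genes, so this refit is not an independent test of them. RNA integrity numbers, given for 4 of the 5 malathion mice, were 4.7 to 6.5, below the 6.7 to 7.2 of the controls, and the lowest Clec4f value (9.76) was in the mouse with 4.7 and the highest (11.01) in the mouse with 4.9. Stab2, a scavenger receptor of the sinusoidal endothelium, was also lower (−0.77, limma adjusted p = 0.0012), the only one of 6 endothelial markers called. The part of RNA integrity and of these other cells in the result was not tested.

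In run C the leukocyte gene Ptprc and the macrophage receptor Csf1r were lower with 2,3-benzofuran, a fused furan and benzene ring. Ptprc stood at 9.74, 10.00 and 9.44 in corn oil controls and at 8.84, 8.70 and 9.01 with 2,3-benzofuran. It fell by 0.87 (± 0.16, 1.83-fold lower, limma adjusted p = 0.011). Csf1r stood at 12.80, 12.95 and 12.69 against 12.26, 12.17 and 12.05. It fell by 0.65 (± 0.14, 1.57-fold lower, limma adjusted p = 0.024). The groups did not overlap for either gene, and all treated mice lay below every control for 17.3% of all genes.

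With Ly6d, 3 of the 37 genes were called with 2,3-benzofuran, against 3.28% of all genes. Nominally, 1 of the 37 was higher, against 7.9% of all genes, and 13 were lower, against 12.7%: 5 surface genes (Adgre1, Clec4f, Csf1r, Cd5l, Vsig4), 2 C1q chains, Lyz2, Itgam, Itgax, Ptprc, Nkg7 and S100a8. None of the MHC class II, T cell or B cell genes was among them, though all the T cell and B cell genes were dim in run C. The next genes below the threshold were Clec4f (−0.64, limma adjusted p = 0.056), C1qc (−0.72, limma adjusted p = 0.069) and Adgre1, the F4/80 gene (−0.63, limma adjusted p = 0.091). In this comparison all genes together had a median of −0.118 and the 37 genes one of −0.58. After quantile normalisation these were 0.008 and −0.44. Genes outside the 37 that fell included Fcer1g, the shared Fc receptor gamma chain (−0.98, limma adjusted p = 0.0024), Mpeg1, a pore-forming protein of macrophages (−1.01, limma adjusted p = 0.0026), and Cxcl9, an interferon-induced chemokine (−1.33, limma adjusted p = 0.0035).

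1,5-Naphthalenediamine, a naphthalene with an amino group on each ring, also had lower Ptprc. In chow controls it stood at 9.64, 9.88 and 9.56, and in treated mice at 9.06, 8.69 and 8.88. It fell by 0.82 (± 0.16, 1.77-fold lower, limma adjusted p = 0.016), the only call among the 37 genes (3.4% of all genes called), and the groups did not overlap, with treated mice below every control for 16.4% of all genes. Nominally, 9 of the 37 were lower and 1 higher, against 13.6% and 7.47% of all genes. The median of all genes was −0.123 and that of the 37 genes −0.48. C1qc (−0.73, limma adjusted p = 0.069), Csf1r (−0.48, limma adjusted p = 0.079) and Clec4f (−0.55, limma adjusted p = 0.090) came next. Outside the 37, the lipoprotein lipase gene Lpl rose (2.43, limma adjusted p = 0.0010), and the mannose receptor gene Mrc1, carried by macrophages and sinusoidal endothelium, fell by 0.82 (limma adjusted p = 0.019). The endothelial marker Stab2 fell by 0.90 (limma adjusted p = 0.020), the only one of 6 called, and its part in the result was not tested.

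**Figure D4:**
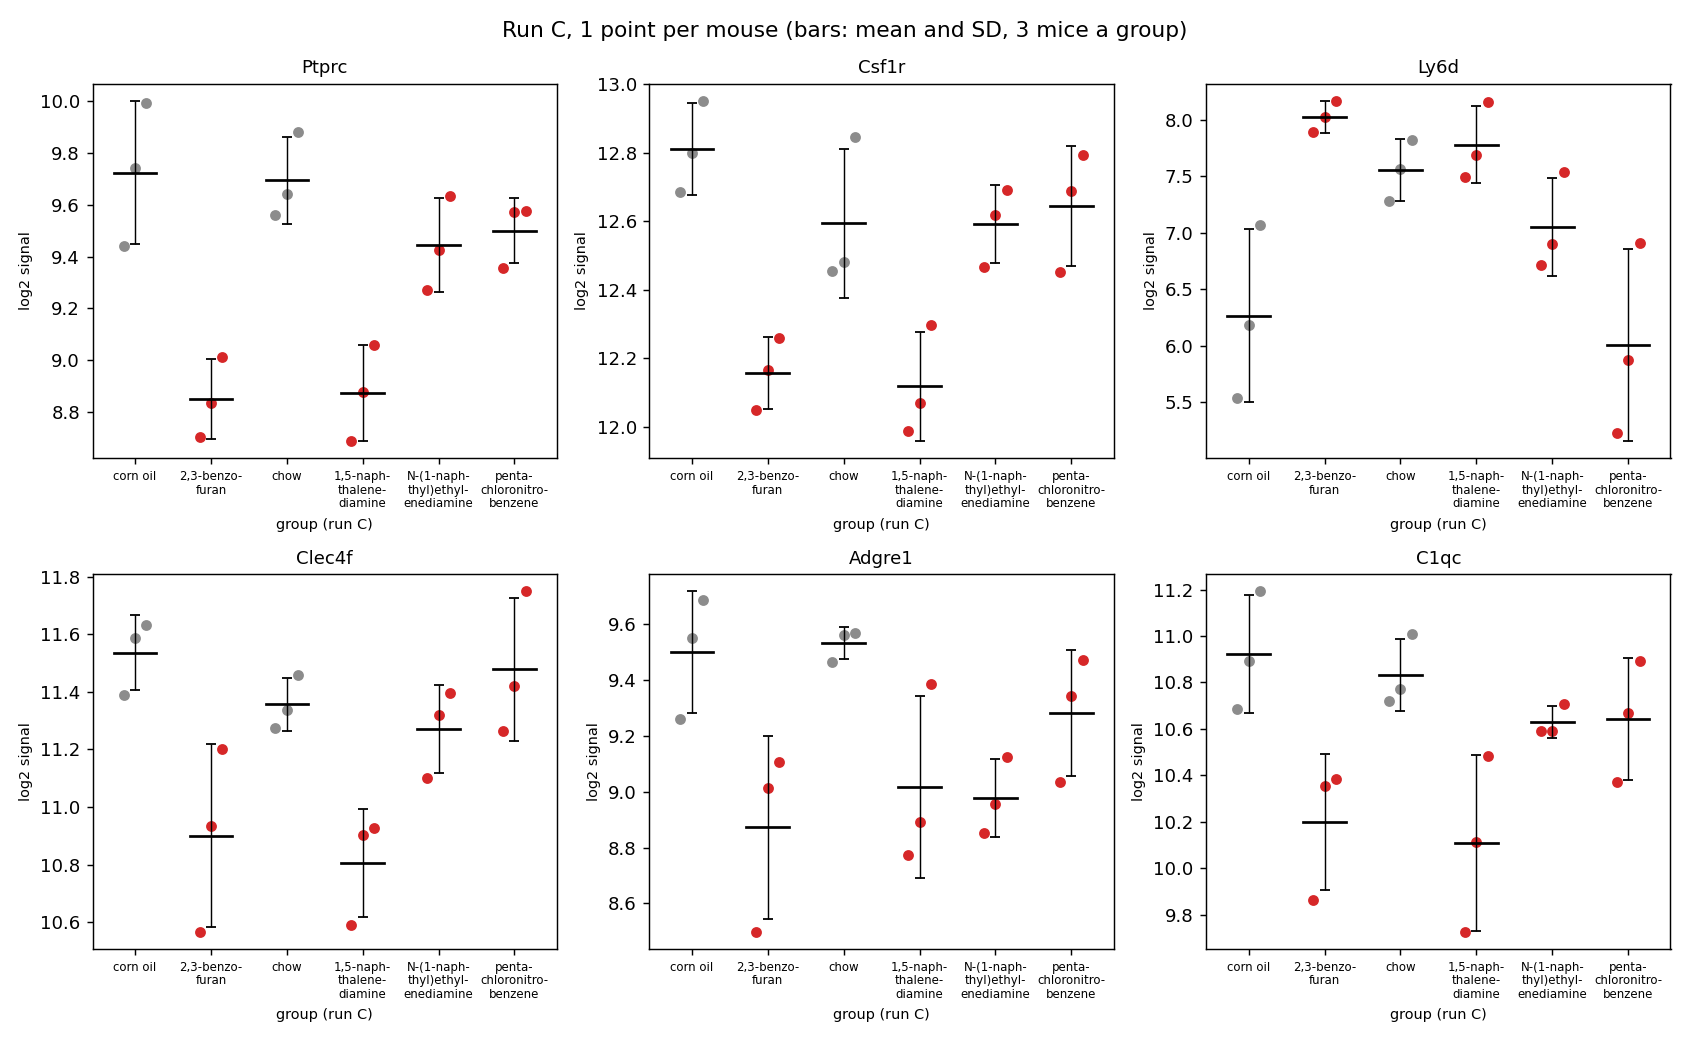
Log2 signal of Ptprc, Csf1r, Ly6d, Clec4f, Adgre1 and C1qc in each mouse of run C (points, 3 per group, grey for controls; bars give the mean and SD). Ptprc lies between 9.44 and 10.00 in corn oil controls and between 8.70 and 9.01 with 2,3-benzofuran.

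These calls rest on 3 mice per group and a spread shared over the run. Fitted on the 2 groups alone, none of the 4 calls of run C passed, with limma adjusted p from 0.11 to 0.13. Ptprc with 2,3-benzofuran was lost without corn oil replicate 2 (−0.74, limma adjusted p = 0.052). Without this array the Csf1r and Ly6d calls with 2,3-benzofuran were lost too. Among the corn oil controls it had the highest Ptprc and Csf1r and the lowest Ly6d. Its RNA integrity number was 7.4, against 8.8 in the other corn oil controls and 8.3 to 9.4 with 2,3-benzofuran. The part of RNA integrity in these calls was not tested. Ptprc with 1,5-naphthalenediamine was lost without chow replicate 2 (−0.73, limma adjusted p = 0.061), treated replicate 2 (−0.73, limma adjusted p = 0.068) or treated replicate 3 (−0.82, limma adjusted p = 0.051). Treated replicate 2 is 1 of 2 arrays that were rescaled because their mean signal differed from all others. Csf1r was lost without corn oil replicate 1 (−0.66, limma adjusted p = 0.056), corn oil replicate 2 (−0.58, 0.093), treated replicate 2 (−0.66, 0.068) or treated replicate 3 (−0.60, 0.080).

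The compounds given at the same dose in feed in run C were 1,5-naphthalenediamine and N-(1-naphthyl)ethylenediamine, which carries its amines on a side chain of 1 ring. Ptprc stood at 9.63, 9.43 and 9.27 with the latter. The direct difference, 1,5-naphthalenediamine minus the other, was −0.57 for Ptprc (95% interval −0.92 to −0.22, limma adjusted p = 0.14). With limma none of the 37 genes was called for this difference (0.923% of all genes called), and 9 were nominally lower and 0 higher, against 8.13% and 5.05% of all genes.

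limma called the lymphocyte genes in none of the 46 groups, and nominally the 4 T cell genes were higher in 8 and lower in 7 of 184 combinations, the 3 B cell genes higher in 4 and lower in 2 of 138, and the 3 cytotoxic genes higher in 3 and lower in 5 of 138. Of all combinations of genes and groups 4.9% were nominally higher, 5.51% lower and 0.751% called. The lowest limma adjusted p of any T cell gene over all comparisons was 0.12, for Cd4, a helper T cell coreceptor, with methylene chloride at 500 ppm (0.47 ± 0.16). For the B cell genes it was 0.12, for Cd79a, a signalling chain of the B cell receptor, with N-(1-naphthyl)ethylenediamine dihydrochloride (1.73 ± 0.52). For the cytotoxic genes it was 0.14, for Gzma, a granule protease, with methylene chloride at 4000 ppm (−0.75 ± 0.30).

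Ly6d was the gene of the 37 that rose. With 1,4-dichlorobenzene, a moth repellent ingredient, it stood at 7.64, 4.93, 7.94, 7.69 and 7.20 in corn oil controls. At 100 mg/kg it stood at 6.18, 5.89, 7.00 and 7.22, at 300 mg/kg at 6.80, 7.32, 6.97 and 7.36, and at 400 mg/kg at 6.62, 7.06, 7.23 and 8.79. At 500 mg/kg it stood at 8.34, 7.50, 10.39 and 9.47, and at 600 mg/kg at 8.12, 7.94, 10.08 and 10.27. At each of the 2 upper doses 3 of 4 mice lay above the highest control.

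On the line fitted over the dose ranks Ly6d rose by 2.50 from control to 600 mg/kg (± 0.49, 5.64-fold higher, limma adjusted p = 3.3e-04). This is steeper than the direct change of 2.02 at that dose. Ly6d was the only one of the 37 genes called for this trend (1.12% of all genes called). Nominally, 6 of the others were lower and none higher, while 6.27% of all genes were lower and 7.49% higher. Leaving out any of the 25 mice gave a fitted rise between 2.11 and 2.77, and the call held each time. Against the controls alone the single doses gave 1.84 at 500 mg/kg (limma adjusted p = 0.084) and 2.02 at 600 mg/kg (limma adjusted p = 0.057). Clec4f had a trend of −0.36 (limma adjusted p = 0.040), under the fold minimum. Of 7 B and plasma cell genes measured outside the 37, only Ighm and Blnk were called for this trend. Ighm, the IgM heavy chain gene, rose (2.89, limma adjusted p = 0.0077), as did Blnk, a B cell adaptor (1.06, limma adjusted p = 0.0019). Within the 37, Cd79a (0.44, limma adjusted p = 0.69), Cd79b (0.36, limma adjusted p = 0.64) and Ms4a1, the CD20 gene (−0.04, limma adjusted p = 0.98), did not pass.

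With 2,3-benzofuran Ly6d stood at 8.17, 7.89 and 8.02 against 7.07, 5.54 and 6.19 in controls. It rose by 1.76 (± 0.41, 3.39-fold higher, limma adjusted p = 0.030), and the groups did not overlap, with treated mice above every control for 11.4% of all genes. The call was lost without treated replicate 1 (1.69, limma adjusted p = 0.089), 2 (1.83, 0.073) or 3 (1.76, 0.079), or without corn oil replicate 2 (1.40, 0.12) or 3 (1.72, 0.090).

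Ly6d was nominally higher in 9 of the 46 groups and lower in 1, against 4.9% and 5.51% of all combinations of genes and groups. Among the 9, 1,2-dibromoethane, benzene and coumarin share 1 corn oil set of run A. The Ly6d mean of that set, 5.62, was the lowest of the 14 control sets. With 1,2-dibromoethane the mouse that stands apart was at 11.86 and the next highest at 6.90. With iodoform and with 4-nitroanthranilic acid every treated mouse lay above every control, although limma did not call the gene. With iodoform it stood at 8.34, 9.08, 8.88 and 8.52 against 6.79, 5.09, 6.87 and 6.88 (2.30 ± 0.56, limma adjusted p = 0.24). With 4-nitroanthranilic acid it stood at 8.54, 8.32, 8.15 and 8.94 against 6.90, 6.29, 6.53 and 5.75 (2.12, limma adjusted p = 0.50, and 0.16 when fitted without the 2 mice that stand apart). All treated mice above every control was seen for 3.16% of all genes with iodoform and 2.41% with 4-nitroanthranilic acid. With benzene it stood at 9.21, 8.82, 6.81 and 7.01 against 4.87, 5.45, 7.42 and 4.73, and these groups overlapped. The benzene change in the next comparison is taken against this same low set. At 100 mg/kg, the Ly6d change with 1,4-dichlorobenzene minus the change with benzene was −2.90 (95% interval −4.70 to −1.10, limma adjusted p = 0.35, and 0.29 without the 2 mice that stand apart), in a comparison across 2 runs in which limma called 0% of all genes and none of the 37, with 2 nominally lower and 0 higher (3.93% and 2.52% of all genes).

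**Figure D5:**
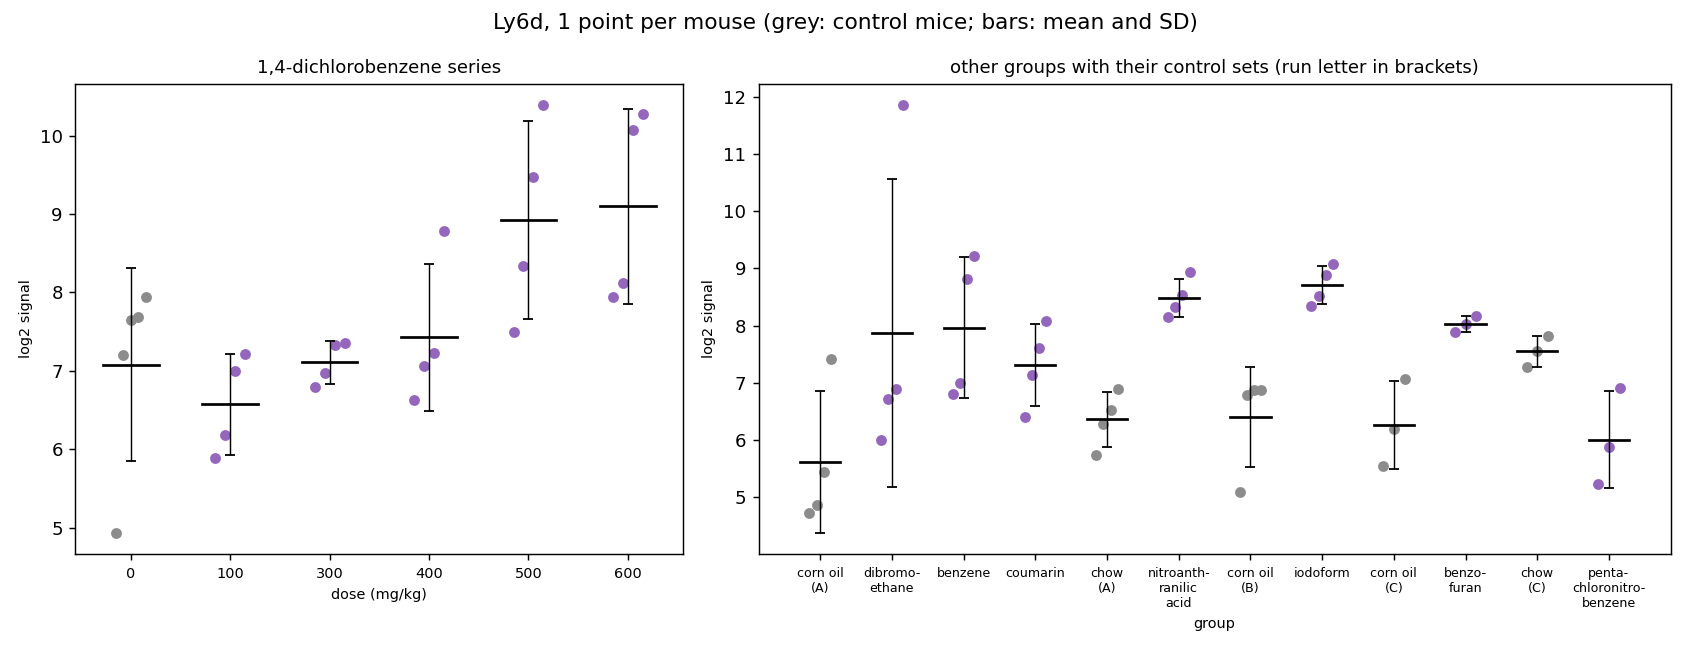
Ly6d in each mouse (points, grey for controls; bars give the mean and SD) over the doses of 1,4-dichlorobenzene and in other groups with their control sets, as log2 signal. At 600 mg/kg the 4 mice lie between 7.94 and 10.27, and the corn oil controls between 4.93 and 7.94.

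In the other dose series limma called none of the 37 genes. With propylene glycol mono-t-butyl ether 0.253% of all genes had a trend, 1 of the 37 was nominally higher and 1 lower (4.72% and 5.24% of all genes), and the lowest limma adjusted p among them was 0.20, for Cd163. With 1,2,3-trichloropropane 0.577% did, 1 was nominally higher and 8 lower (5.04% and 7.9%), and the lowest was 0.13, for Csf1r.

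Control sets of the same vehicle and run were compared in 5 pairs, and limma called none of the 37 genes in any. Of all genes it called 0% between the corn oil sets CCO5 and CCO6, 0% between the distilled water sets WCO1 and CCO3, and 0%, 0.0879% and 0.126% between the air sets ACO3 and ACO4, ACO3 and ACO5, and ACO4 and ACO5. In CCO5 against CCO6, 1 of the 37 was nominally higher and 4 lower (6.06% and 6.34% of all genes), and in WCO1 against CCO3, 0 and 5 (2.26% and 4.14%). Between the air sets it was 0 and 1 (1.98% and 3%), 0 and 0 (1.59% and 3.31%), and 0 and 0 (2.78% and 3.52%), in the order above.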

How the data were processed

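The deposited values are linear signal intensities per probe set, and the submitters' processing notes list GCOS 1.0. Other steps are not given in the sources used here. In 240 of 242 arrays the mean trimmed by 2% at each end was 500, and 2 arrays (vanadium pentoxide replicate 4 at 148.4 and 1,5-naphthalenediamine replicate 2 at 84.5) were multiplied to that value. Of 45101 probe sets, 34945 had exactly 1 gene symbol, and the one with the highest mean was kept for each of 18193 genes. Signals plus 17.3 (the arrays' median value of the 20th percentile) were taken to log2 and tested with limma 3.58.1 (R 4.3.3) in each run, with 1 mean per group and run code as a block in run A. In all there were 58 comparisons, two-sided and linked by shared controls. The labels do not pair treated with control sets, so vehicle, run and adjoining animal numbers decided it. Set CCO3 was kept apart because its titles resemble corn oil sets. Each array is 1 mouse, so p-values judge a difference between groups against the spread between mice, shared over the groups of a run. The number of arrays limits the precision.

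Trends are linear contrasts over equally spaced dose ranks. Of the 37 genes, 23, 21, 23 and 22 passed a filter on dim genes in runs A to D, used as an alternative only. Member pairs, 12 in all, were tested on deviations from group means, permuted within groups (Python 3.11.15, scipy 1.17.1). All 37 genes could be named, with every called one named in its comparison or else the one with the lowest adjusted p, and up to 3 called genes of each other list. Genes named outside this rule, such as Mpo, Elane and Ngp, were chosen after their values were seen, as were the thresholds used to describe S100a8. The members, lists and tests were chosen with earlier results of these data known. The method was tested on simulated data. Alternatives were another normalisation, filter or pseudocount, the 2 groups alone, pooled controls, no run code block, other readings of dose and leaving out each array. Those without a fold minimum, the rescaled arrays or the 2 mice that stand apart were added after seeing the data.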

Additional observations from a re-analysis of the deposited data

Results flagged for a closer look

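Among groups of 4 to 10 mice, 11 of the 63 combinations of gene and group whose values are printed had 1 mouse whose gap to its nearest neighbour was large for the group's range (Dixon's criterion), where chance gives about 1 in 20. Over all 1998 combinations of the 37 genes it was 139 (6.96%), and the mice involved most often were replicate 2 of CCO3 and replicate 3 of 1,2-dibromoethane. The latter mouse was at 14.962 for S100a8, 14.689 for S100a9 and 11.856 for Ly6d.

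In the naphthalene series Clec4f was low in replicate 3 at 0.5 ppm (11.521), replicate 1 at 3 ppm (11.183) and replicate 4 at 30 ppm (10.78). H2-Eb1 was high in replicate 4 of the air controls (10.976) and in replicate 3 at 30 ppm (9.475), and H2-Aa was high in that same control mouse (11.511). Ly6d was low in replicate 2 of the 1,4-dichlorobenzene controls (4.932) and in replicate 2 of the run B corn oil controls (5.093).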

How the results depend on the processing

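The changes of followed genes that passed the limit on adjusted p kept their direction under every alternative. A count of calls has no direction. Some small medians over the followed genes changed sign after quantile normalisation. They went from −0.013 to 0.008 with pentachloronitrobenzene and from −0.002 to 0.011 for the propylene glycol mono-t-butyl ether trend. For the methylene chloride trend the median went from 0.0003 to −0.029. Over the 46 groups the count of called combinations, 4, was 8 after quantile normalisation, 12 without dim genes, 7 at a pseudocount 4 times higher, 1 with the 2 groups fitted alone and 11 with control sets of a vehicle and run pooled. The count with 2,3-benzofuran (3) was 6 without dim genes, 0 with the 2 groups alone and 0 to 2 without 1 array. With 1,5-naphthalenediamine (1) it was 2 after quantile normalisation, 2 without dim genes, 0 with the 2 groups alone, 0 without the rescaled arrays and 0 to 3 without 1 array. With malathion (0) it was 2 without dim genes, 1 with the 2 groups alone, 2 without the 2 mice that stand apart and 0 to 1 without 1 array, the 1 being without replicate 4. With pooled controls it was 1 for methylene chloride at 500 ppm, 2 at 3000 ppm, and 1 for naphthalene at 0.5 and at 3 ppm. Without a fold minimum it was 1 at 3000 ppm of methylene chloride. Without 1 array it was 0 to 1 for methylene chloride at 3000 and 4000 ppm and naphthalene at 0.5 ppm, and 0 to 2 for naphthalene at 3 ppm. For 1,4-dichlorobenzene at 500 and at 600 mg/kg it was 1, Ly6d, after quantile normalisation, without dim genes, at the higher pseudocount and with pooled controls, and 0 to 1 without 1 array. The 1,4-dichlorobenzene trend (1) gave 2 without a fold minimum and 1 to 2 without 1 array, and the methylene chloride trend (0) gave 1 and 0 to 1. The naphthalene trend (1) gave 0 after quantile normalisation, 3 without dim genes, 5 on a linear dose scale, 8 with the dosed groups alone and 0 to 5 without 1 array. The cause of these shifts was not tested. Without dim genes fewer genes are tested. The other 918 counts under alternatives stayed within 1.5 times the reported count. No paired analysis was possible because the labels carry animal numbers only, and the replicate numbers follow the order of the samples. Probe sets of 1 gene did not always concur: of the other probe sets of Csf1r, 1 was called with 2,3-benzofuran (−0.70) and 1 was not (−0.65), and over all probe sets the adjusted p of the ones used were 0.056 for Csf1r and 0.051 for Ly6d. The other probe set of Ptprc was dim (mean level 5.29) and was not called. It was at −0.11 with 2,3-benzofuran (limma adjusted p = 0.92) and at −0.12 with 1,5-naphthalenediamine (limma adjusted p = 0.90). The T cell, B cell and cytotoxic genes did not pass the filter on dim genes in any run, except Cd8a in runs B and D, so their changes are less well measured. The same held for Itgam, Itgax and Ccl2 in all runs and for Ccr2 in all but run C. It also held for S100a8 and S100a9 in runs B and D and for Marco in runs B and C.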
